A study of Homo sapiens with 14 samples.

Results

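The autophagy and lysosome genes described here are 38 genes picked by symbol, out of 36601 features in the single-cell tables and 60624 genes in the bulk tables. All 38 were found in both kinds of table. No measured value entered the rule, but the genes were chosen with earlier results of these data known. By role they comprise 5 cargo receptors, 5 ATG8 proteins, 5 genes of initiation and membrane supply, 3 genes of ATG8 conjugation, 3 MiT/TFE transcription factors, 5 lysosomal membrane proteins and channels, 10 lysosomal hydrolases and activators, and 2 subunits of the V-ATPase, the pump that acidifies the lysosome.

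The study followed SW620 cells, an established line from a lymph node metastasis of a colorectal cancer, through a long-term culture (LTC) of 15 days in which compact colonies form and cells later leave them. In the single-cell series SW620-FLAG cells carried an empty FLAG vector (their labels read SW620), and SW620-TET2CD cells overexpressed the catalytic domain of TET2, an enzyme that oxidises methylated cytosine in DNA. Single-cell RNA-seq covered each line on days 6, 9, 12 and 15. Bulk RNA-seq covered SW480 and SW620 on day 6, and the cells inside and outside the colonies of both SW620 and SW620-TET2CD on day 15. The labels give the bulk SW620 libraries of both days as SW620 alone, with no word on a vector. SW480 is a line from the primary tumor of the patient who also gave SW620. Each of these conditions had 1 library, so a p-value measures the spread between libraries of the remaining days or lines and not between repeated cultures.

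Autophagy encloses cargo in a double membrane, the autophagosome, and delivers it to the lysosome, where acid hydrolases degrade it. ATG8 proteins are joined to a membrane lipid and bind the cargo receptors, and ULK1, a kinase held in check by mTORC1 when nutrients are plentiful, starts the process. TFEB, TFE3 and MITF bind short palindromes in the promoters of many lysosomal genes and are the main transcription factors known to act on them.

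After filtering, the 8 single-cell libraries kept 3894 to 8154 cells and 48186195 to 74185723 UMIs each, and the 6 bulk libraries held 16470176 to 25840563 expected counts. The cell barcodes shared by any of the 28 pairs of single-cell libraries numbered 11 to 31, at most 0.440% of the smaller library. TET2 stood at 2.11 to 3.90 CPM (the UMIs of a gene summed over the kept cells of a library and scaled to a common library total) in the SW620-FLAG libraries and at 40.2 to 107 CPM in the SW620-TET2CD libraries. In bulk it was at 1.29 TPM or less (TPM, a scaled level per transcript length) on day 15 in SW620, and in SW620-TET2CD at 38.1 TPM inside the colonies and 124 TPM outside. The 9 colorectal epithelial markers summed to 10486 to 14721 CPM, and 10 of 11 leukocyte markers stayed under 1 CPM in every library, with LAPTM5 at up to 8.10 CPM and a sum of 4.67 to 8.92 CPM. The 7 fibroblast markers summed to 16.6 to 28.7 CPM early and 8.37 to 12.9 CPM late, a difference whose part in the results was not tested. LUM was the highest of them in every library (14.9 to 27.2 and 4.31 to 10.4 CPM). COL1A1 was at 1.62 CPM or less early and at 1.91 to 3.35 CPM late, and the other 5 stayed under 1 CPM. The 25 genes of a cell cycle list summed to 3263 to 3701 CPM on days 6 and 9 and to 473 to 950 CPM on days 12 and 15.

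Days 12 and 15 (late) were first set against days 6 and 9 (early), with 4 libraries on each side and the line as a block. A gene was called when its p-value, from the quasi-likelihood test of edgeR and adjusted after Benjamini and Hochberg over all genes tested, was under 0.05. Of the 38 members 21 were called, 13 higher and 8 lower late. Among all 16993 genes tested 57.7% were called, 5001 higher and 4807 lower, so the share of members called was close to that of genes at large, and the median log2 fold change was 0.09 over the members and 0.04 over all genes. With upper-quartile scaling factors in place of TMM the split among members became 18 higher and 6 lower and among all genes 6413 higher and 3708 lower, and the median over all genes moved from 0.04 to 0.21. The libraries of the early and late days did not overlap for 21 members, 15 of them higher late, beside 51.9% of all genes tested. That count is on CPM, and with the TMM scaling of the fit, an alternative added after seeing the data, it was 23 members, 13 of them higher late, beside 52.3% of genes. The heat map of members by library shows which genes these were.

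**Figure D1:**
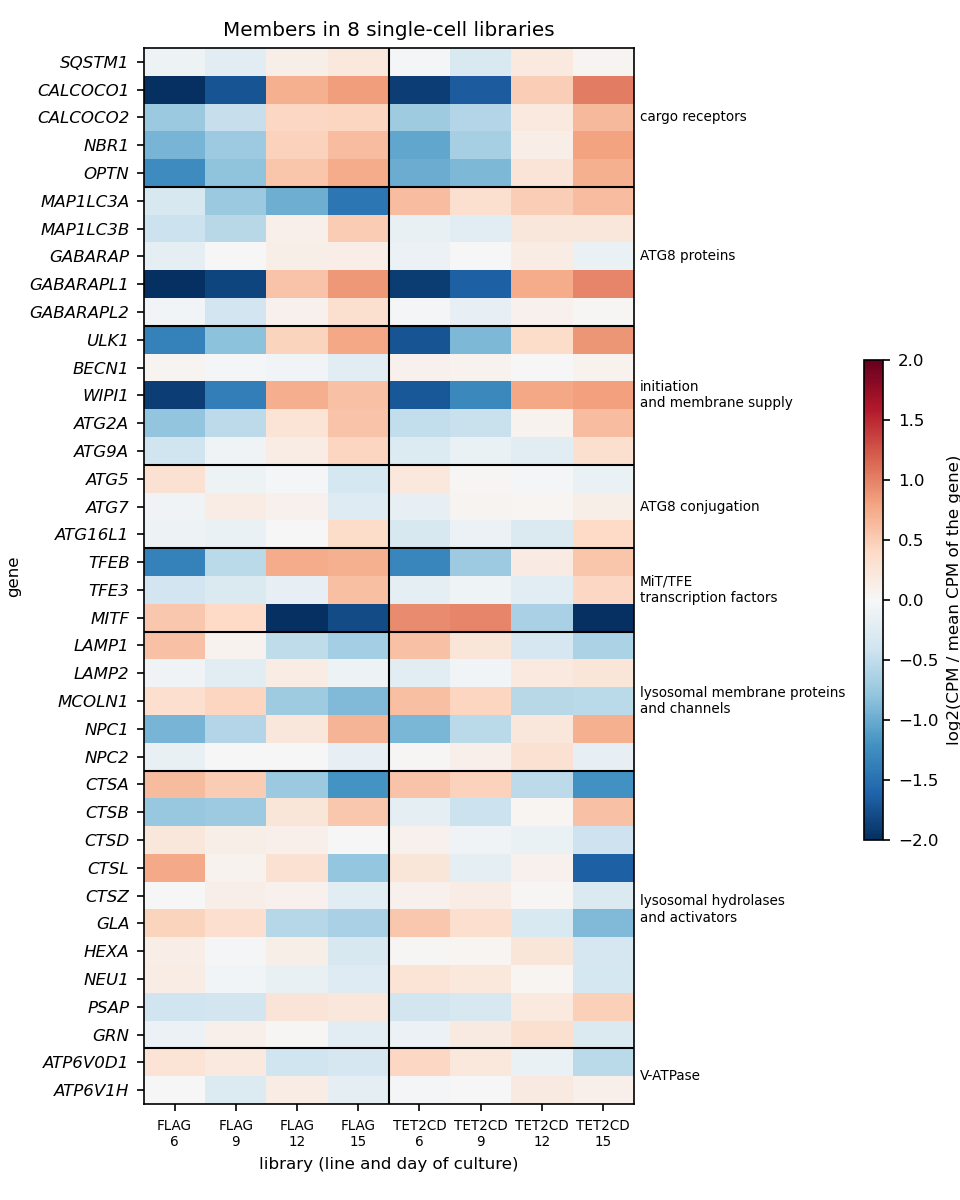
Colors give log2 of a gene's CPM in a library over its mean CPM in 8 libraries (columns: line and day of culture; rows: genes, grouped by role), with values beyond 2 on either side drawn at the end of the scale. CALCOCO1, GABARAPL1 and WIPI1 turn from blue to red between days 9 and 12 in both lines, CTSA, GLA and LAMP1 turn from red to blue, and MAP1LC3A differs between the lines.

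The cargo receptors, which hold ubiquitinated or otherwise marked cargo on the forming autophagosome, rose in 4 of 5 cases. CALCOCO1, a receptor for parts of the endoplasmic reticulum and the Golgi, was at 7.72, 10.1, 54.2 and 59.2 CPM in the SW620-FLAG libraries on days 6, 9, 12 and 15 and 9.02, 10.4, 46.8 and 67.5 CPM in the SW620-TET2CD libraries. All 4 late libraries lay above all 4 early ones, and the log2 fold change was 2.50 ± 0.15 (SE; edgeR adjusted p = 6.91e-06). OPTN, which has a part in the removal of mitochondria, was at 25.5, 35.1, 90.3 and 102 CPM in the SW620-FLAG libraries and 30.7, 33.0, 73.0 and 100.5 CPM in the SW620-TET2CD libraries. It rose by 1.44 ± 0.15 on the log2 scale (edgeR adjusted p = 4.34e-05). NBR1, a receptor built much like SQSTM1, rose by 1.24 ± 0.15 (at most 19.97 CPM early and at least 34.7 CPM late), and CALCOCO2, known as NDP52 and as a receptor for invading bacteria, rose by 0.94 ± 0.12 (from 16.5 to 20.2 CPM early to 31.8 to 43.4 CPM late). SQSTM1, or p62, the receptor most used to follow autophagy, was at 127, 117, 147 and 158 CPM in the SW620-FLAG libraries and 132, 111, 155 and 141 CPM in the SW620-TET2CD libraries. Its early and late libraries did not overlap on CPM but did with TMM scaling, and the log2 fold change was 0.19 ± 0.12 and was not called (edgeR adjusted p = 0.202).

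Among the ATG8 proteins GABARAPL1 and MAP1LC3B rose. GABARAPL1 was at 1.31, 1.86, 9.83 and 12.1 CPM in the SW620-FLAG libraries on the 4 days and 1.78, 2.14, 11.1 and 13.0 CPM in the SW620-TET2CD libraries. With a log2 fold change of 2.60 ± 0.18 (edgeR adjusted p = 7.5e-06) it had the highest rise of any member. MAP1LC3B, the LC3 form on which most autophagy assays rest, was at 80.2, 74.2, 116 and 153 CPM in the SW620-FLAG libraries and 97.6, 92.4, 126 and 128 CPM in the SW620-TET2CD libraries. The late libraries were all higher, by 0.50 ± 0.15 on the log2 scale (edgeR adjusted p = 0.0168). That call was lost without the SW620-FLAG library of day 6 (0.46, adjusted p = 0.0631) or of day 9 (0.42, adjusted p = 0.0686). GABARAP was at 458 to 576 CPM with a difference of 0.04 ± 0.13, and GABARAPL2 was at 219 to 358 CPM with a difference of 0.17 ± 0.15, neither of them called. Reads of MAP1LC3B and GABARAPL1 can also match the near-identical copies MAP1LC3B2 and GABARAPL3, and how the counting split them is uncertain.

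Of the genes that start the autophagosome and supply its membrane, ULK1, WIPI1 and ATG2A rose. WIPI1, which binds the lipid PI3P on the forming membrane, was at 2.21, 3.12, 13.4 and 12.2 CPM in the SW620-FLAG libraries and 2.52, 3.32, 13.9 and 14.4 CPM in the SW620-TET2CD libraries. Its log2 fold change was 2.16 ± 0.15 (edgeR adjusted p = 7.75e-06), and the step fell between days 9 and 12 in both lines. ULK1 was at 3.01, 4.32, 10.4 and 13.1 CPM in the SW620-FLAG libraries and 2.31, 4.12, 9.88 and 14.1 CPM in the SW620-TET2CD libraries, a rise of 1.68 ± 0.21 (edgeR adjusted p = 0.00011). ATG2A, which carries lipid to the growing membrane, went from 9.24 to 11.6 CPM early to 16.8 to 24.4 CPM late (0.85 ± 0.15). BECN1, a subunit of the kinase complex that makes PI3P, stayed between 27.2 and 33.7 CPM, and ATG9A, which brings in membrane vesicles, between 7.14 and 12.7 CPM, and neither was called. The conjugation genes ATG5, ATG7 and ATG16L1, whose products attach ATG8 proteins to lipid, gave 1 call. ATG5 fell by 0.36 ± 0.13 on the log2 scale (edgeR adjusted p = 0.0294), from 32.5 to 43.0 CPM early to 27.2 to 34.4 CPM late. Its call was lost without any 1 of 4 libraries, with adjusted p = 0.11 and 0.0923 when the day 6 library of SW620-FLAG or of SW620-TET2CD was left out, and 0.0633 and 0.0721 when that of day 15 was. ATG7 (6.07 to 8.07 CPM) and ATG16L1 (6.08 to 10.0 CPM) were not called.

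**Figure D2:**
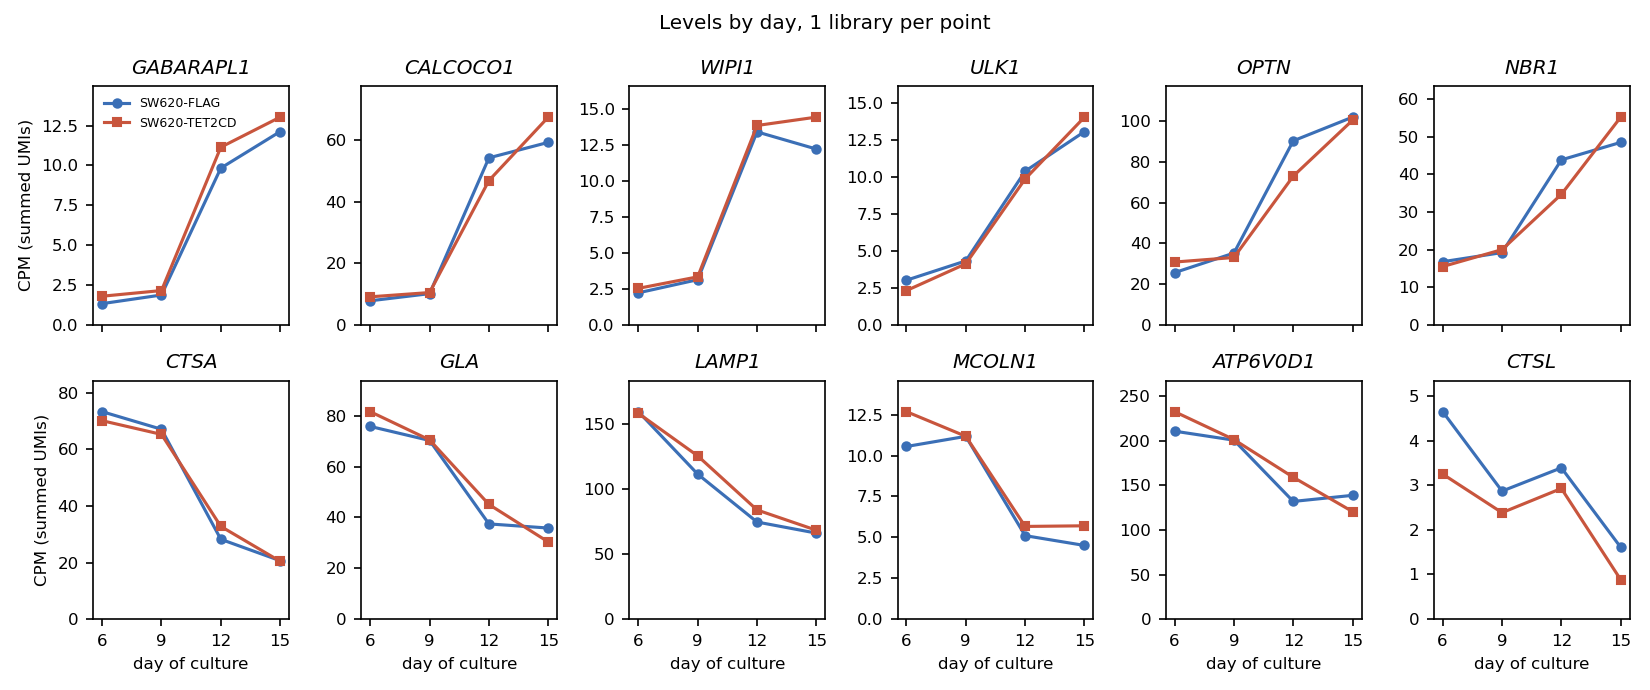
Each panel gives 1 gene's CPM of summed UMIs (linear axis from 0) by day of culture, with a point per library and a line per cell line, for 6 members that rose (top) and 6 with lower late means (bottom). GABARAPL1, CALCOCO1 and WIPI1 rise mostly between days 9 and 12 and CTSA and MCOLN1 fall there, while CTSL, not called late against early, falls between days 12 and 15.

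The MiT/TFE factors parted. TFEB was at 1.03, 1.80, 4.39 and 4.28 CPM in the SW620-FLAG libraries and 1.06, 1.58, 2.95 and 3.86 CPM in the SW620-TET2CD libraries, so each late library exceeded each early one. The rise was 1.38 ± 0.22 on the log2 scale (edgeR adjusted p = 0.000458). MITF, at 14 to 28 UMIs in an early library and 2 to 6 in a late one, fell by 2.42 ± 0.39 (edgeR adjusted p = 0.000499). Over the period sums, 91 UMIs early and 13 late, the ratio of late to early was 0.194 with an exact 95% interval of 0.0993 to 0.348 that covers counting error only. TFE3 was at 9.66 to 11.7 CPM up to day 12 and stood at 19.1 and 16.6 CPM on day 15. It was not called late against early (0.33 ± 0.21) and was called on day 15 against day 12 (0.74 ± 0.17, edgeR adjusted p = 0.0167).

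On the lysosomal side the directions were mixed. LAMP1, one of the most abundant proteins of the lysosomal membrane, was at 159, 111, 74.5 and 65.9 CPM in the SW620-FLAG libraries and 158, 125, 83.7 and 68.2 CPM in the SW620-TET2CD libraries. Every late library was below every early one, with a log2 fold change of -1.03 ± 0.15 (edgeR adjusted p = 0.000272). MCOLN1, the calcium channel TRPML1 of the lysosome, was at 10.6, 11.2, 5.10 and 4.50 CPM in the SW620-FLAG libraries and 12.7, 11.2, 5.67 and 5.70 CPM in the SW620-TET2CD libraries and fell by 1.24 ± 0.12 (edgeR adjusted p = 2.58e-05). NPC1, which exports cholesterol from the lysosome, went the other way, from 6.18 to 8.17 CPM early to 13.9 to 19.4 CPM late (1.11 ± 0.17, edgeR adjusted p = 0.000354). NPC2, the soluble protein that hands cholesterol to NPC1, was not called, at 57.0 to 79.4 CPM, and LAMP2, at 34.0 to 46.9 CPM, was not called either.

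Of the 10 hydrolases and activators 2 rose, 3 fell and 5 were not called. CTSA, a carboxypeptidase that protects NEU1 and a galactosidase in a complex, was at 73.3, 67.1, 28.2 and 20.6 CPM in the SW620-FLAG libraries and 70.1, 65.3, 32.8 and 20.4 CPM in the SW620-TET2CD libraries. After MITF this was the deepest fall of any member, at -1.55 ± 0.17 on the log2 scale (edgeR adjusted p = 4.74e-05). GLA, alpha-galactosidase A, was at 75.8, 70.3, 37.5 and 35.8 CPM in the SW620-FLAG libraries and 81.6, 70.5, 45.1 and 30.4 CPM in the SW620-TET2CD libraries and fell by 1.11 ± 0.15 (edgeR adjusted p = 0.000166). The sialidase NEU1 fell by 0.42 ± 0.13 (edgeR adjusted p = 0.0184) from 31.4 to 39.5 CPM early and 25.7 to 33.7 CPM late, ranges that overlapped on CPM and not with TMM scaling. Its call was lost without the day 6 library of SW620-FLAG (adjusted p = 0.0535) or of SW620-TET2CD (adjusted p = 0.0594). CTSB, a cysteine protease, was at 39.3, 40.2, 79.3 and 97.3 CPM in the SW620-FLAG libraries and 58.6, 49.8, 68.8 and 100.3 CPM in the SW620-TET2CD libraries and rose by 0.78 ± 0.17 (edgeR adjusted p = 0.0032). PSAP, the precursor of the saposins that help break down sphingolipids, rose by 0.54 ± 0.10, from 70.3 to 74.5 CPM early to 107 to 129 CPM late. The aspartic protease CTSD (-0.31 ± 0.12), CTSZ (-0.29 ± 0.12), HEXA (-0.21 ± 0.15), GRN (-0.15 ± 0.15) and CTSL (-0.69 ± 0.36) were not called. The V-ATPase subunit ATP6V0D1 was at 211, 201, 132 and 139 CPM in the SW620-FLAG libraries and 233, 201, 159 and 121 CPM in the SW620-TET2CD libraries and fell by 0.73 ± 0.14 (edgeR adjusted p = 0.00129), while ATP6V1H (23.7 to 32.5 CPM) was not called.

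The promoters of 4 members that fell share a palindrome, and they are printed here as a description. The choice of members read no promoter sequence. It did pick lysosomal genes, in many of which such palindromes are known, so the feature is not independent of the choice. RefSeq promoter windows (build GRCh38.p14, 250 bases before to 50 bases after a start) were at hand for 31 members, of which 10 had risen and 8 had fallen. TCACGTGA, the inner 8 letters of the CLEAR element bound by TFEB and its relatives, was in the windows of LAMP1, MCOLN1, CTSA and ATP6V0D1, all of which fell, and in none of the 10 that had risen. These 4 are all lysosomal by role, while of the members that rose only NPC1, CTSB and PSAP are. Direction and role can therefore not be told apart here. It is a palindrome, so 1 search covers both strands, and it was in 344 of all 35116 windows, or 0.980%. Counted by gene, it was in 4 of 31 members (12.9%) and in 321 of 27305 symbols (1.18%). Each stretch below is 5′ to 3′ on the gene's strand, with TCACGTGA and every other CACGTG (the E-box inside it) in capitals. The LAMP1 stretch is chr13:113297039-113297244 on the plus strand, the MCOLN1 stretch chr19:7522524-7522623 on the plus strand, the ATP6V0D1 stretch chr16:67481158-67481257 on the minus strand and the CTSA stretch chr20:45891290-45891319 on the plus strand.
LAMP1: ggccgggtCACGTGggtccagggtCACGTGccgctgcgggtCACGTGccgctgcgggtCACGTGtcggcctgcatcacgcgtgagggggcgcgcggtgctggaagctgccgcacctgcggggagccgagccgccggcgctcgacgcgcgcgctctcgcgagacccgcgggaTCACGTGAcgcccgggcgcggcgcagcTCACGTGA
MCOLN1: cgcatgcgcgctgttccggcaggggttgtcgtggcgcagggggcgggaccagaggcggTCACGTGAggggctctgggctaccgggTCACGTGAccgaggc
ATP6V0D1: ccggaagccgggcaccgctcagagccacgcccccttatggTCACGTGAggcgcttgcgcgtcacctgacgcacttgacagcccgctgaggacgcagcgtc
CTSA: tgtCACGTGgcgccggagtTCACGTGActc

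LAMP1 holds 6 E-boxes in its window, 2 of them as TCACGTGA, starting 29 and 2 bases before the RefSeq start. In MCOLN1 the 2 sites start 42 and 15 bases before it, in CTSA the site starts 26 bases and in ATP6V0D1 60 bases before it. The GENCODE annotation puts the whole CTSA stretch and 24 bases of the ATP6V0D1 stretch inside exons of transcripts that start further upstream. The last 6 bases of the LAMP1 stretch lie past its start, in its first exon, and the MCOLN1 stretch holds no exon base. CACGTG was also in the windows of NEU1 and CTSD and in 2548 of all windows (7.26%). Over all 241 tested genes with TCACGTGA in a window, 27.8% rose and 36.5% fell late, beside 27.7% and 32.1% of the 11317 tested genes in the promoter table. Over the 1384 tested genes with CACGTG these shares were 24.3% and 40.0%. The shared palindrome was noticed after the directions were known, and a match is a string of letters, not a measured binding site.

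By interval, the calls were most numerous between days 9 and 12, in fits that use the same 8 libraries. With a library left out, the counts of genes at large changed along with those of members. The ranges of both are given at the end. A count of members from such a fit is given here without its share of genes, and is no result about the members. On day 9 against day 6 no member was called by edgeR (7 at an unadjusted p under 0.05, 0 by DESeq2), beside 0.887% of genes tested. Without the SW620-FLAG or the SW620-TET2CD library of day 15, which share the estimate of the spread, 3 members were called there (ULK1 higher, LAMP1 and CTSL lower). On day 12 against day 9, 18 members were called, 12 higher and 6 lower, beside 42% of genes, among them GABARAPL1 (2.27 ± 0.18), CALCOCO1 (2.18 ± 0.14), WIPI1 (1.96 ± 0.14), CTSA (-1.24 ± 0.15) and MCOLN1 (-1.18 ± 0.14). Leaving out the SW620-FLAG library of day 12 left 11 called. On day 15 against day 12, 7 members were called, beside 13% of genes: NBR1, NPC1, ATG16L1 and TFE3 were higher and CTSA, CTSL and HEXA lower. CTSL, a cysteine protease, had the deepest of these differences, 3.39 then 1.61 CPM for SW620-FLAG, 2.93 then 0.882 CPM for SW620-TET2CD (-1.33 ± 0.24, edgeR adjusted p = 0.00727). The 7 calls became 0 without the SW620-TET2CD library of day 12, 2 without the SW620-FLAG library of day 12 or either library of day 9, 3 without either library of day 6, and 13 without the SW620-FLAG library of day 15.

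In the same 8 libraries, cells were next compared by their cell cycle transcripts, since the share of cells with at least 2 UMIs from the 25-gene cycle list, counted in 2000 UMIs drawn from each cell, was 79.4 to 89.1% on days 6 and 9 and 11.7 to 26.9% on days 12 and 15. These cycle-high cells were set against cycle-zero cells, which had no such UMI in the draw, as sums per library with the library as a block. Cycle-zero cells could hold cycle UMIs outside the draw. Cells with none among all their UMIs numbered 28 beside 352 cycle-zero cells in SW620-FLAG on day 6, and 2477 beside 4670 on day 15. Of the 37 members tested 26 were lower and 2 higher in cycle-high cells. Among the 16141 genes tested 51.3% were called, 22.9% higher and 28.5% lower, and the median log2 fold change was -0.37 over the members and -0.08 over all genes. The classes are built on measured transcripts, none of them a member, and cycle-high cells also had more UMIs (medians of 7058 to 14720 per library, beside 4858 to 12833 in cycle-zero cells). The median mitochondrial share was higher in cycle-zero cells in 4 of 4 early libraries (6.78% beside 5.15% in SW620-FLAG on day 6, for example) and lower there in 4 of 4 late ones (5.286% in both classes of SW620-FLAG on day 15, to 4 digits). The part of depth and of this share in the differences was not tested.

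All 5 cargo receptors and all 5 ATG8 proteins were lower in cycle-high cells. SQSTM1 was at 121, 127, 106 and 101 CPM in cycle-high and at 186, 213, 190 and 161 CPM in cycle-zero cells of the 4 early libraries (SW620-FLAG day 6, SW620-TET2CD day 6, and the same on day 9). It was lower in cycle-high cells in 8 of 8 libraries, by 0.65 ± 0.04 on the log2 scale (edgeR adjusted p = 3.01e-09), although it was not called between late and early days. GABARAPL1 was at 0.864 to 1.51 CPM in cycle-high and at 6.05 to 8.39 CPM in cycle-zero cells of the early libraries, and at 5.22 to 8.24 and 10.5 to 14.1 CPM in those of the late libraries (-1.50 ± 0.22, edgeR adjusted p = 2.22e-05). The levels of early cycle-zero cells and late cycle-high cells overlapped for this gene. CALCOCO1 (-1.45 ± 0.11), WIPI1 (-1.12 ± 0.18), ULK1 (-0.93 ± 0.12), NBR1 (-0.79 ± 0.07) and TFEB (-0.74 ± 0.17) followed. CTSD (-0.43 ± 0.05), HEXA (-0.45 ± 0.05) and GRN (-0.37 ± 0.07), not called between late and early days, were lower in cycle-high cells in 8 of 8 libraries. GLA was higher in cycle-high cells in 8 of 8 libraries (0.64 ± 0.06, edgeR adjusted p = 1.27e-07), at 72.3 to 83.0 CPM beside 47.0 to 68.7 CPM in the early libraries, and so was MCOLN1 (0.35 ± 0.08, edgeR adjusted p = 0.00138). Of the 28 calls 21 were kept in every alternative. That of MAP1LC3A was lost with classes set by the share of UMIs, and those of CTSB, NPC1, ATP6V0D1, GABARAPL2, BECN1 and LAMP2 were each lost on leaving out at least 1 library, and their log2 fold changes ran from -0.50 to -0.06 over all alternatives tried, while CTSL, CTSZ, CTSA, LAMP1, NPC2, ATG9A and the 3 conjugation genes were not called.

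**Figure D3:**
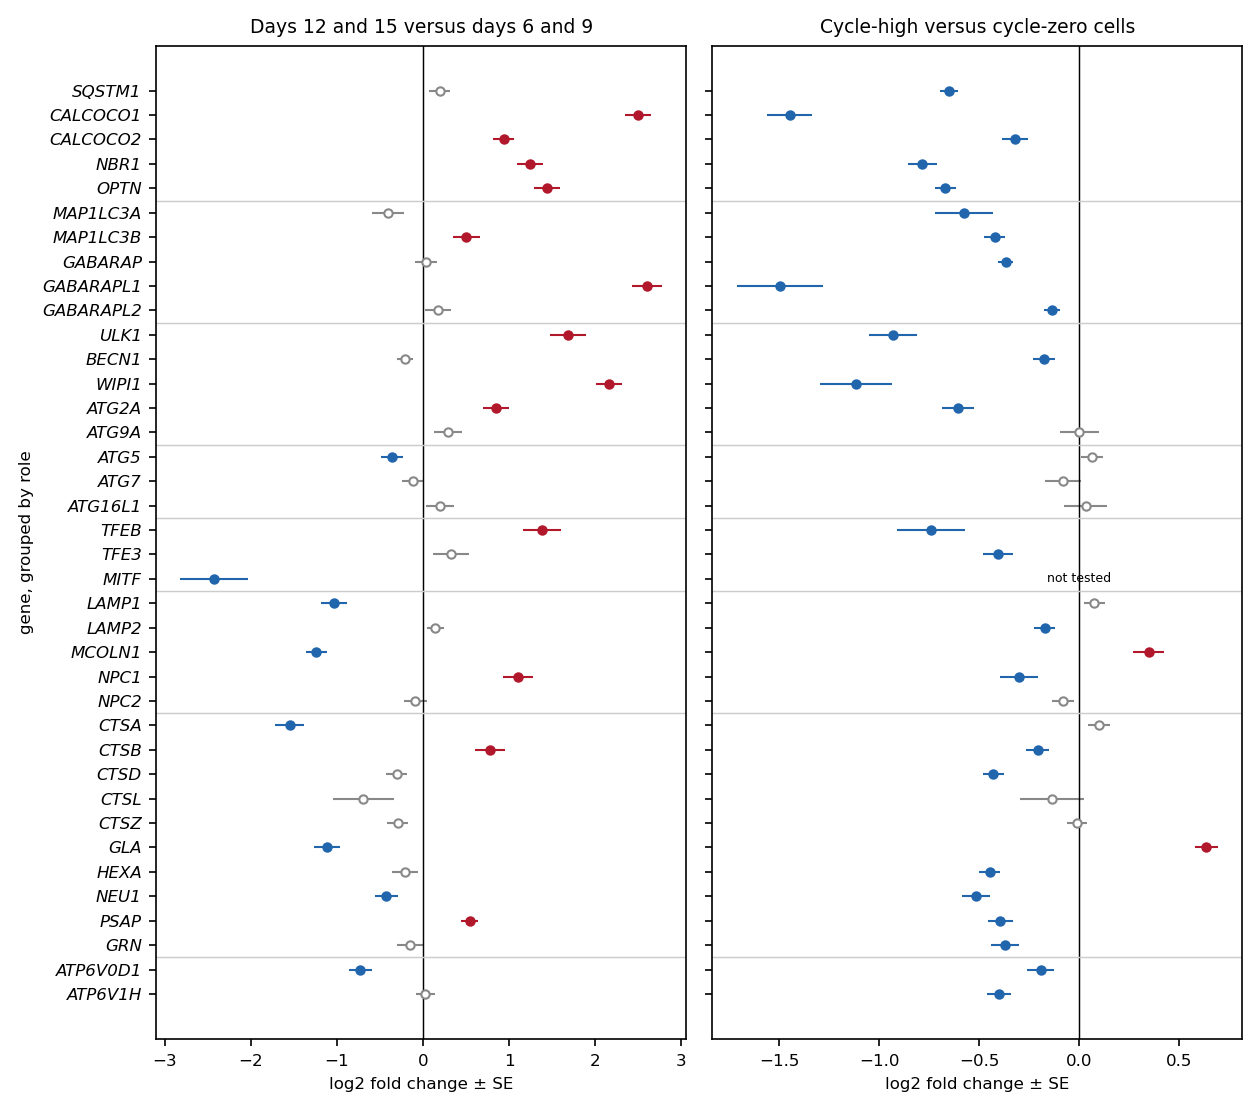
Points give log2 fold changes with their SE for each member (rows, grouped by role), for late against early days (left) and cycle-high against cycle-zero cells (right). Filled red and blue points were called higher and lower, and open grey points were not called. CALCOCO1, OPTN, NBR1, GABARAPL1, ULK1 and WIPI1 are high late and low in cycle-high cells, GLA and MCOLN1 the reverse, and LAMP1 and CTSA differ by day with no call between the classes of cells.

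The late and early days still differed within each class of cells, although a class did not hold the cycle transcripts equal between the periods. In SW620-FLAG, 4128 of 4813 cycle-high cells had at least 4 cycle UMIs in the draw on day 6 and 222 of 502 on day 12. The part of this in the differences was not tested. In cycle-zero cells alone 21 members were called late against early, 11 of them higher, beside 35.3% of 14633 genes, and in cycle-high cells alone 19, 12 of them higher, beside 43.6% of 15584 genes. Of the 21 members called over all cells, 16 were called the same way in cycle-zero cells and 18 in cycle-high cells. ATG5 and MAP1LC3B lost their calls in both classes, TFEB and PSAP in cycle-zero cells, and MITF was not tested in either. MAP1LC3B was at 69.2 to 95.1 CPM early and 93.5 to 133 CPM late in cycle-high cells. In cycle-zero cells it was at 103 to 127 and 119 to 157 CPM. Sizes changed more than directions: GABARAPL1 rose by 0.87 in cycle-zero cells and 2.38 in cycle-high cells beside 2.60 over all cells, and CALCOCO1 by 1.24 and 1.97 beside 2.50. LAMP1 fell by 0.90 in cycle-zero and 0.95 in cycle-high cells beside 1.03 over all cells, and CTSA by 1.41 and 1.44 beside 1.55.

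For the 8 members with a mean of at least 100 CPM, the share of cells with a UMI was read after each cell had been thinned to 2000 UMIs. All cells belong to the SW620 lines, so no cell type that should lack these genes was at hand for a background share. LAMP1 had a UMI in 19.0 to 26.8% of cells in the early libraries and 12.0 to 14.3% in the late ones, and ATP6V0D1 in 32.5 to 36.4% and 22.1 to 26.9%. MAP1LC3B was at 13.8 to 18.0% and 19.8 to 27.1%. SQSTM1 (19.4 to 22.3% and 23.9 to 26.6%) and GABARAPL2 (35.8 to 42.7% and 43.8 to 51.0%) were not called in the fit. The ranges of these 5 did not overlap between the periods, while those of CTSD (18.3 to 21.4% and 14.3 to 20.3%), CTSZ (23.6 to 24.3% and 18.8 to 24.2%) and GABARAP did. On CPM the periods did not overlap for 51.9% of all genes tested, and shares of cells were not counted over all genes. The levels of SQSTM1 and GABARAPL2 overlapped with TMM scaling. The shares come from the same UMIs as the CPM and are no further support for a change. GABARAP had a UMI in 58.9 to 67.7% of cells. Without thinning the same shares were higher, 37.6 to 84.6% for LAMP1 over all libraries.

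SW620-TET2CD and SW620-FLAG were then compared over the 4 days of the same libraries, with the day as a block. Only MAP1LC3A was called among the 38 members (1 by DESeq2 as well), beside 4.32% of genes tested. MAP1LC3A, another LC3 form, was at 3.77, 2.79, 2.38 and 1.72 CPM in the SW620-FLAG libraries on days 6, 9, 12 and 15 and 7.23, 5.89, 6.60 and 7.19 CPM in the SW620-TET2CD libraries. Every SW620-TET2CD library exceeded every SW620-FLAG library, with a log2 difference of 1.26 ± 0.15 (edgeR adjusted p = 0.000499). The call was kept on leaving out any single library and was lost without the day as a block (1.23, adjusted p = 0.192). Within the SW620-TET2CD line it was at 12.8, 11.3, 16.9 and 17.7 CPM in the cells with a TET2 UMI (763 to 2274 cells a library) and at 4.81, 4.06, 3.94 and 4.61 CPM in those without. The cells of SW620-FLAG without a TET2 UMI were at 3.81, 2.83, 2.46 and 1.67 CPM. In cells without a TET2 UMI the difference between the lines was 0.64 and was not called (edgeR adjusted p = 0.0519), a comparison chosen after the data had been seen. Cells with a TET2 UMI were few in SW620-FLAG (124 to 184 a library) and held 1 to 5 UMIs of MAP1LC3A, too few to place them. The split within SW620-TET2CD was not particular to MAP1LC3A. WIPI1, for example, was at 4.67, 6.21, 17.9 and 26.1 CPM with a TET2 UMI and at 1.60, 2.34, 12.8 and 11.6 CPM without. Most of the 38 members were higher with one on each day, among them GABARAPL1, NPC2, NEU1, LAMP1 and CTSZ. How many of all genes were so was not counted. The cells with a TET2 UMI also held more UMIs per cell on each day, and the part of this in the splits was not tested. ULK1 was lower with one, at 2.02, 4.03, 7.38 and 11.8 CPM beside 2.43, 4.15, 10.5 and 14.6 CPM. These splits were not tested.

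**Figure D4:**
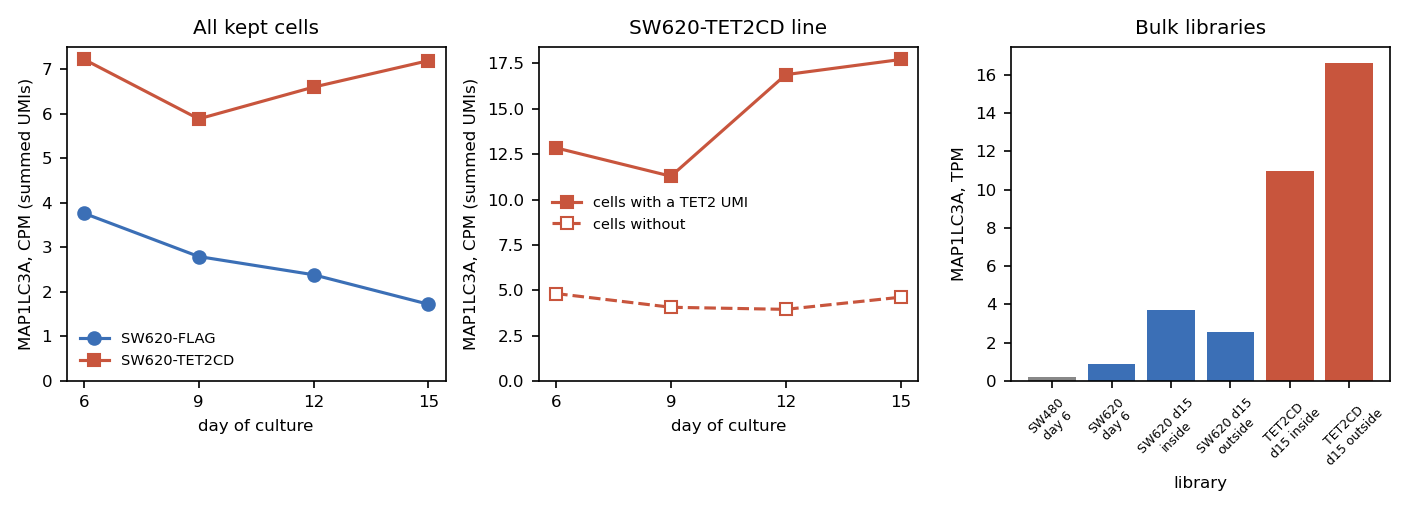
MAP1LC3A by library: CPM of summed UMIs by day in both lines (left), CPM in SW620-TET2CD cells with and without a TET2 UMI (middle), and TPM in 6 bulk libraries (right). All axes start at 0, and each point or bar is 1 library. The SW620-TET2CD libraries lie above those of SW620-FLAG in single cells and of SW620 in bulk, and within SW620-TET2CD the level is 11.3 to 17.7 CPM in cells with a TET2 UMI and 3.94 to 4.81 CPM in cells without.

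The other 37 members differed by -0.53 (CTSL) to 0.46 (MITF) between the lines on the log2 scale, none of them called. CTSD stood lower in the SW620-TET2CD libraries of 4 of 4 days (124, 114, 114 and 106 beside 112, 101, 96.6 and 79.8 CPM), by 0.35 ± 0.11, with edgeR adjusted p = 0.131, and CTSL also stood lower on 4 of 4 days, with adjusted p = 0.105. For CTSD and CTSL the 4 of 4 days held on CPM and with TMM scaling. ULK1, NBR1 and ATG16L1 were higher in SW620-TET2CD on 1, 2 and 2 days on CPM and on 0 days with TMM scaling. For GABARAPL1, WIPI1, BECN1, NPC1 and MCOLN1 the SW620-TET2CD library was higher on 4 of 4 days on CPM only, and with TMM scaling NPC1 was higher on 0 days and the others on 3. How many of all genes lay on the same side on 4 of 4 days was not counted, so these day counts are values only. Whether the lines changed differently between the early and late days was asked by the line-by-period interaction. No member and no gene was called (0% of genes tested by edgeR, 0 members by DESeq2), with 0 members and 141 genes at an unadjusted p under 0.05. The fit had 4 residual degrees of freedom and counted differences between the days of a period as spread. The lack of calls therefore does not show that the lines changed alike.

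In the bulk libraries of day 15, GABARAP (391 to 485 TPM), CTSB (194 to 391 TPM), PSAP (266 to 413 TPM) and SQSTM1 (249 to 347 TPM) had the highest levels per transcript length, while MITF (0.06 to 0.33 TPM), CTSL (1.47 to 2.85 TPM) and TFEB (4.10 to 5.78 TPM) were among the lowest. A bulk level cannot tell fewer cells expressing a gene from less RNA per cell. Cells outside the colonies were compared with cells inside them with the line as a block. No member was called of 37 tested (all but MITF), beside 0% of 17722 genes (0 members and 1068 genes at an unadjusted p under 0.05, and 0 members by DESeq2). The fit had 1 residual degree of freedom, and the cells inside and outside were parted with accutase and a cell strainer, possibly from a single culture. For SW620, GABARAPL1 had 18.5 TPM inside and 16.9 TPM outside and WIPI1 21.8 and 21.1 TPM. For SW620-TET2CD, GABARAPL1 had 23.6 and 39.5 TPM and WIPI1 29.8 and 50.6 TPM. TET2 itself was at 38.1 TPM inside and 124 TPM outside in these SW620-TET2CD libraries, and its part in these differences was not tested.

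Between the lines in these 4 libraries, with the location as a block, edgeR called none of 37 members (10 at an unadjusted p under 0.05), beside 0.412% of genes, while DESeq2 called 5, all higher in SW620-TET2CD, beside 709 of 17722 genes. These 5 were CTSB, MAP1LC3A, GABARAPL1, MAP1LC3B and WIPI1. CTSB was at 206 and 194 TPM inside and outside the colonies in the SW620 libraries and 328 and 391 TPM in the SW620-TET2CD libraries, a log2 difference of 0.84 ± 0.12 (edgeR adjusted p = 0.0693). MAP1LC3A was at 3.73 and 2.55 TPM in the SW620 libraries and 10.97 and 16.6 TPM in the SW620-TET2CD libraries, a log2 difference of 2.01 ± 0.40 (edgeR adjusted p = 0.106). It was the 1 member that was also called between the lines in the single-cell libraries. CTSB in the single-cell libraries of SW620-TET2CD and SW620-FLAG was at 58.6 and 39.3 CPM on day 6, 49.8 and 40.2 on day 9, 68.8 and 79.3 on day 12 and 100.3 and 97.3 on day 15, higher in SW620-TET2CD on 3 of 4 days (2 of 4 with TMM scaling) and not called (0.07 ± 0.13). In SW620-TET2CD it was at 102, 74.9, 90.4 and 115 CPM in cells with a TET2 UMI and at 40.2, 41.3, 63.2 and 96.8 CPM in those without, and in the few such cells of SW620-FLAG at 30.1, 39.6, 92.2 and 112 CPM beside 39.6, 40.2, 78.6 and 97.0 CPM. This split was chosen after its values were seen and was not tested. With 3 libraries the location could not be kept as a block, so the fits that left out a library compared the lines alone, with 1 library in an arm that was assumed to vary like the other arm. Those fits called 14 members beside 4191 of 18664 genes without the SW620-TET2CD library from inside the colonies, 11 beside 2950 of 18215 genes without the one from outside, and none without either SW620 library, and the part of the dropped block in these counts was not tested.

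**Figure D5:**
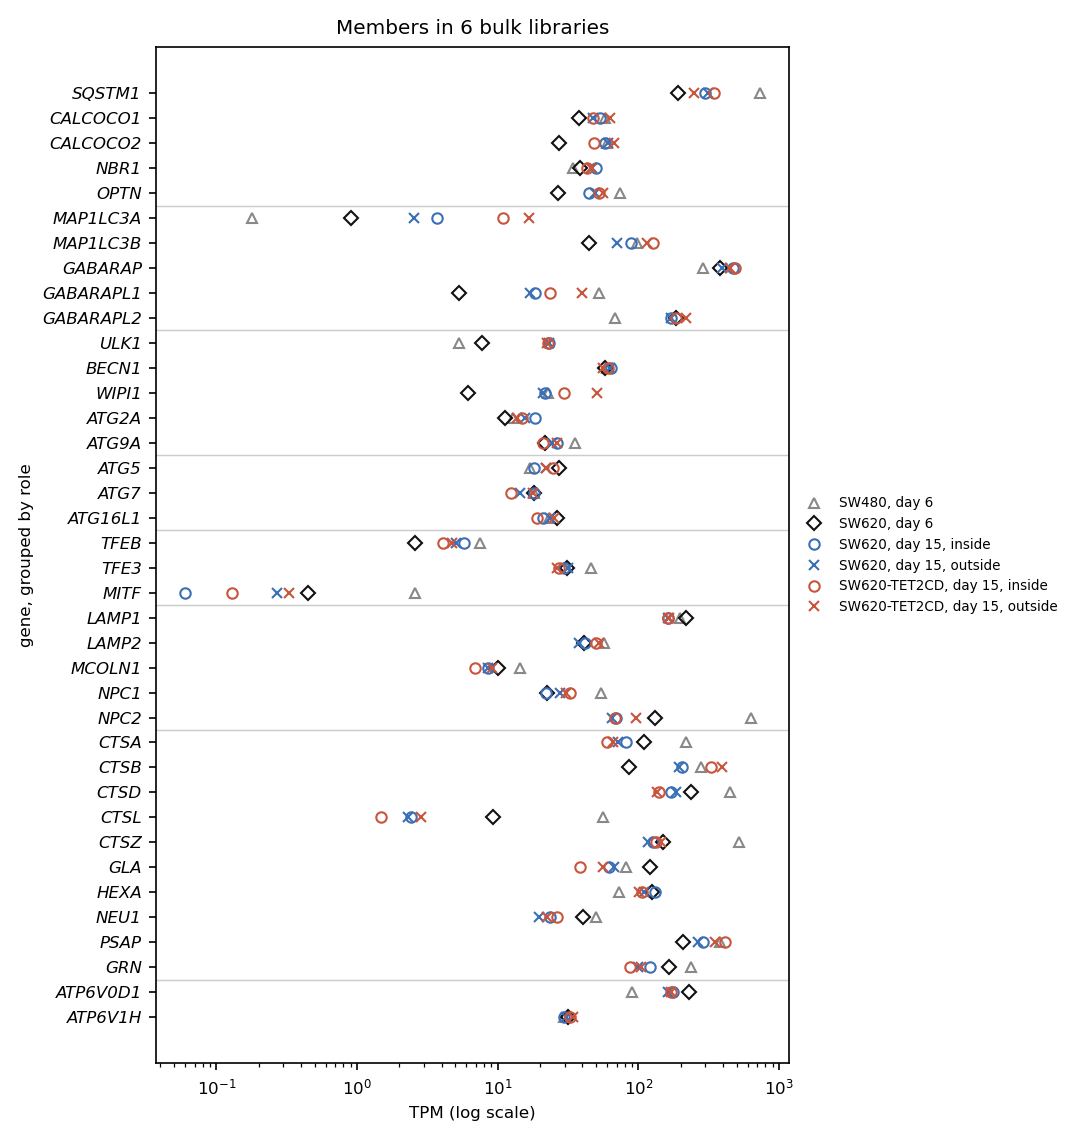
TPM (log axis) of each member (rows, grouped by role) in the 6 bulk libraries, with 1 marker per library. WIPI1, GABARAPL1 and ULK1 lie to the right of the SW620 day 6 diamond on day 15 and CTSL to the left, and the SW480 triangles lie far to the right for SQSTM1, NPC2, CTSZ and CTSL.

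The SW620 culture of day 6 had 1 bulk library, so the day 15 libraries of SW620 were set beside it as values without a test. A member was counted when both day 15 libraries were at least 2-fold away in the same direction on the log2(TPM + 1) scale. WIPI1, CALCOCO2, GABARAPL1, CTSB and ULK1 were higher by this count and CTSL lower, 6 of 38 members. The share was 6.62% among the 16816 genes that reached 1 TPM in any of these libraries, which MITF did not. With TMM-scaled CPM the count was 5, without CALCOCO2, and with a pseudocount of 0.1 it was 7, with MAP1LC3A added as higher. ULK1 was at 7.72 TPM on day 6 and 23.1 TPM inside and 23.2 TPM outside the colonies on day 15. GABARAPL1 went from 5.27 to 18.5 and 16.9 TPM, WIPI1 from 6.16 to 21.8 and 21.1 TPM and CTSL from 9.22 to 2.41 and 2.31 TPM. CALCOCO1 was at 38.1 TPM on day 6 and at 53.8 and 47.6 TPM on day 15, log2 ratios of 0.49 and 0.31 beside its 2.50 over the single-cell sums. These bulk and single-cell comparisons share no library. Of the 20 members called late against early with enough bulk signal, 19 had the same sign in both bulk ratios, and NPC1 was the exception (-0.02 and 0.29). Over all called genes the figure was 5803 of 8278, or 70.1%.

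SW480 and SW620 on day 6 were set side by side in the same way, with 1 library each. Past 2-fold were 15 of 38 members, 13 higher in SW480 and 2 lower, beside 27.6% of the 17191 genes that reached 1 TPM in either library. With TMM-scaled CPM the count was also 15, with CTSA in place of CALCOCO2. With a pseudocount of 0.1 it was 16, with MAP1LC3A added as lower. SQSTM1 was at 731 TPM in SW480 and 192 TPM in SW620, NPC2 at 635 and 132 TPM, CTSZ at 517 and 149 TPM, CTSL at 56.3 and 9.22 TPM and GABARAPL1 at 52.7 and 5.27 TPM. TFEB (7.44 and 2.57 TPM) and MITF (2.57 and 0.45 TPM) were also higher in SW480. GABARAPL2 (67.7 and 185 TPM) and ATP6V0D1 (89.6 and 231 TPM) were lower in SW480, and MAP1LC3A was at 0.18 and 0.90 TPM. The bulk kit does not mark strand, and an exon of 17 members is overlapped by a gene on the opposite strand (GABARAPL1 by GABARAPL1-AS1, WIPI1 by ARSG, CTSA by PLTP), whose reads cannot be told apart from the member's in bulk.

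The wider pathway was read from 149 other genes in 8 lists. Late against early, 147 were tested, with 48 higher and 50 lower, beside 57.7% of genes called at large. Among 12 other selective receptors 5 rose and 3 fell. BNIP3L, which marks mitochondria for removal, rose by 2.51 ± 0.27 (mean of 20.8 CPM early and 128 CPM late), and CCPG1, a receptor for the endoplasmic reticulum, by 1.57 ± 0.16 (13.9 and 44.5 CPM). PHB2 (-0.70 ± 0.16) and TOLLIP (-0.56 ± 0.14) fell. Of 27 genes of mTORC1 and its lysosomal regulators 12 rose and 9 fell. DDIT4, an inhibitor of mTORC1, rose by 4.22 ± 0.64 (12.4 and 215 CPM) and SESN3, another inhibitor, by 1.19 ± 0.20 (28.3 and 70.9 CPM), while MTOR, the kinase itself, fell by 0.84 ± 0.12 (23.1 and 14.0 CPM) and its partner MLST8 by 0.88 ± 0.12 (41.1 and 24.1 CPM). Of 17 other V-ATPase subunits 2 rose and 7 fell, with TCIRG1 at 0.47 ± 0.15, ATP6V0E2 at -1.70 ± 0.26 and ATP6V0B at -0.87 ± 0.17.

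Of 30 tested hydrolases outside the members 11 rose and 12 fell, with TPP1 at 1.02 ± 0.17 and PPT1 at -0.92 ± 0.14. Other lysosomal membrane proteins divided into 5 that rose and 6 that fell of 18, other genes of autophagosome formation into 8 and 4 of 23 (TMEM41B at 0.93 ± 0.16, ATG3 at -0.98 ± 0.13), and fusion genes into 4 and 7 of 14 (PLEKHM1 at 1.22 ± 0.21, VPS33A at -0.62 ± 0.12, YKT6 at -0.59 ± 0.13). Of 6 genes of mannose-6-phosphate sorting, the route that carries hydrolases to the lysosome, IGF2R rose and NAGPA and SORT1 fell. Of the genes named here as risen, 4 were lower in both bulk libraries of SW620 on day 15 than in that of SW620 on day 6, BNIP3L (12.19 and 11.76 beside 14.16 TPM), TMEM41B (53.55 and 49.09 beside 67.16 TPM), PLEKHM1 (27.08 and 25.3 beside 28.61 TPM) and IGF2R (56.7 and 60.69 beside 63.04 TPM), while CCPG1, DDIT4, SESN3, TPP1 and TCIRG1 were higher in both. In cycle-high against cycle-zero cells 19 of 144 tested were higher and 70 lower, beside 22.9% and 28.5% of all genes. Between the lines in the single-cell libraries 3 were higher and 3 lower of 147, a share close to the 4.32% of all genes, with DPP7 (-0.49 ± 0.10) and IDS (-0.44 ± 0.10) lower in SW620-TET2CD. In bulk on day 15 IDS was higher in SW620-TET2CD, at 15.54 and 18.58 TPM inside and outside the colonies beside 8.82 and 7.56 TPM in SW620. DPP7 was at 98.28 and 62.4 TPM beside 89.56 and 91.99 TPM.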

How the data were processed

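Single-cell UMI counts per gene and barcode were deposited by the authors from Cell Ranger 4.0 on GRCh38. The bulk expected counts and TPM were deposited by the authors from Bowtie and RSEM, with versions not given in the sources used here. The labels name mm10 for the bulk files, although these list human Ensembl genes.

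Barcodes were kept when they held 200 to 4500 genes, 1000 to 20000 UMIs and a mitochondrial share of no more than 10% (48282 of 67056 barcodes), and their counts were summed per library. Doublets were not called. Sums and rounded expected counts were tested in edgeR 4.0.16 (filterByExpr, TMM, quasi-likelihood, Benjamini-Hochberg adjustment, threshold 0.05) under R 4.3.3, after the scripts had been tested on simulated data. DESeq2 1.42.0, other scalings, filters, cell classes and each library left out were alternatives. Single bulk libraries were compared as log2(TPM + 1). Cycle classes were set in 2000 UMIs drawn per cell, leaving out 333 shallower cells. Overlaps came from GENCODE 44 and promoters from RefSeq (GRCh38.p14). Intervals cover counting error only. All 38 members were named. Genes of the other lists were named from the 2 highest and 2 lowest called genes of each list with a mean of at least 8 CPM, and not every one of these was named. Members and lists were chosen with earlier results of these data known.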

Additional observations from a re-analysis of the deposited data

Results flagged for a closer look

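Of the 76 groups of 4 single-cell libraries looked at (each member on the early or the late days), 3 held a library far from the others, where chance gives about 1 in 20. ATG16L1 was at 6.08 CPM in SW620-TET2CD on day 6, and the other early libraries were at 6.89 to 7.06 CPM. ATP6V1H was at 23.7 CPM in SW620-FLAG on day 9, and the other early libraries were at 27.9 to 28.6 CPM. GABARAP was at 471 CPM in SW620-TET2CD on day 15, and the other late libraries were at 563 to 576 CPM.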

How the results depend on the processing

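No called difference changed direction under an alternative that tested it. Late against early, 16 of the 21 calls among the members were kept in every alternative that tested them (MITF was not tested within the cycle classes), and NEU1, TFEB, ATG5, PSAP and MAP1LC3B were lost in some. Leaving out single libraries gave 18 to 26 members and 8216 to 10356 genes there. In cycle-zero cells alone 5159 genes were called late against early, 25 on day 9 against day 6, 2421 on day 12 against day 9 and 461 between the lines. On day 15 against day 12, 4 members were called in these cells, a count given without the share of genes at large. On day 9 against day 6, DESeq2 called 396 genes beside 155 by edgeR, and 978 genes without a filter on low counts, 479 with every barcode and 340 at a mitochondrial limit of 20% each came with 1 member called. Leaving out single libraries gave 1 to 1363 genes and 0 to 3 members on day 9 against day 6, 3395 to 9110 genes and 11 to 21 members on day 12 against day 9, and 269 to 3220 genes and 0 to 13 members on day 15 against day 12.

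Between the lines in single cells, 1489 genes and 3 members were called without the filter, 46 genes and 0 members without the day as a block, and, in a comparison added after seeing the data, 366 genes and 0 members in cells without a TET2 UMI. Leaving out single libraries gave 440 to 774 genes, and 1 member each time. The interaction gave 15 genes without the filter. Outside against inside the colonies, DESeq2 called 21 genes and edgeR without the filter 472. Between the lines in bulk, DESeq2 called 709 genes and 5 members, edgeR 2239 genes and 7 members without the filter and 178 genes with upper-quartile factors, and leaving out single libraries, which also dropped the location block, gave 0 to 4191 genes and 0 to 14 members. The cause of these changes was not tested. The median share of cells with a UMI was 72.4% without thinning and 23.8% with it. No condition had a replicate, and MITF, at 2 to 28 UMIs a library, is limited by depth.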

Other observations

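Some of the other genes of the pathway also differed between cycle-high and cycle-zero cells. BNIP3L (-0.95 ± 0.07 on the log2 scale), DDIT4 (-0.95 ± 0.15), TPP1 (-0.79 ± 0.05), CCPG1 (-0.78 ± 0.06) and PLEKHM1 (-0.78 ± 0.08) were lower in cycle-high cells. GUSB (0.61 ± 0.07), a lysosomal glucuronidase, and RHEB (0.47 ± 0.05), the small GTPase that activates mTORC1, were higher there. Of the 27 mTORC1 genes 4 were higher and 16 lower, and of the 12 receptors 1 was higher and 8 were lower, beside 22.9% and 28.5% of all genes tested.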
